A study of Mus musculus with 12 samples.

Results

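Regulatory T cells and the inhibitory receptors of lymphocytes limit immune responses in the gut, and 10 genes of this system were followed in the terminal ileum of 12 female mice. The genes were listed by name and not by their values: Foxp3, Il2ra, Ctla4, Icos, Pdcd1, Lag3, Tigit, Btla, Cd274 and Pdcd1lg2. Of the 10, 9 were among the 547 genes of the table, and Lag3 was not analysed here. All 9 were among the 457 genes that passed the filter for testing, which asked for 3 or more samples with a signal of 20 or higher. For 5 of them (Foxp3, Ctla4, Pdcd1, Tigit and Pdcd1lg2) the signal was under 20 in all 6 samples of one genotype label, so that they passed through the other label and had to differ. Il2ra, Icos, Btla and Cd274 passed on the C57-labelled samples alone.

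Total RNA was measured on a NanoString nCounter panel, which counts single molecules with barcoded probes and involves no amplification. The pups carried the genotype label C57 (C57BL/6) or IL10 (IL10 deficient), and their mothers had been exposed to control cecal contents or to contents perturbed by antibiotics, labelled STAT, with n = 3 in each of the 4 groups. The groups are called WT_control, WT_STAT, IL10_control and IL10_STAT; the inoculum is that of the mother in every case. Age, litter, mother, cage and the kind of Il10 allele are not stated in those labels, so p-values measure the spread between these samples, and mice of a group may share a mother.

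Il10 itself ran against the genotype label, with a signal of 0 to 1.02 in the 6 C57-labelled samples and 24.9 to 74.4 in the 6 IL10-labelled samples. Whether the probe lies in a deleted part of the gene is not stated, and every genotype direction below is one between samples labelled IL10 and samples labelled C57. Counts above background were 146691 to 365850 per C57-labelled sample and 398625 to 717454 per IL10-labelled sample. Because these ranges did not overlap, this difference and genotype label cannot be told apart. Within the IL10 label the counts were 398625 to 506141 in IL10_control and 541733 to 717454 in IL10_STAT. These ranges did not overlap either, so there the difference in counts and the inoculum cannot be told apart. Of the labelled tissue's epithelial markers, 5 were in the table, and their summed signal was 16519 to 54859 per sample. A value of signal is a count minus background times a factor for each sample, and it is compared here between samples of 1 gene and not between genes.

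As background, regulatory T cells are CD4 T cells directed by the transcription factor Foxp3, and they restrain responses to gut microbes. They carry the high-affinity chain of the interleukin-2 receptor (Il2ra) and Ctla4, which competes with Cd28 for the ligands Cd80 and Cd86. Activated T cells express several of the same genes. Pdcd1 (PD-1) is an inhibitory receptor whose ligands are Cd274 (PD-L1) and Pdcd1lg2 (PD-L2); Tigit and Btla are further inhibitory receptors, while Icos is a costimulatory one.

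Cd274 and Pdcd1lg2 are neighbours on chromosome 19, with 0 protein-coding genes between them in the RefSeq annotation, and Ctla4 and Icos are neighbours on chromosome 1. Promoter windows of 300 bases, from 250 before to 50 after the annotated start, were available for 8 of the 10 genes from RefSeq (build GRCm38.p6), and Icos and Lag3 are named only. Both ligand genes are shown because they are adjacent and were both called higher with the IL10 label under the control inoculum. Under STAT Cd274 passed and Pdcd1lg2 did not. Il2ra and Ctla4 are shown because they were the members whose groups did not overlap between the inocula in C57-labelled mice. All 4 windows lie on the plus strand and read 5′ to 3′, at chr19:29367188-29367487 (Cd274), chr19:29410669-29410968 (Pdcd1lg2), chr2:11642542-11642841 (Il2ra) and chr1:60908775-60909074 (Ctla4). Capitals mark matches to any of 4 motifs searched on both strands.
Cd274: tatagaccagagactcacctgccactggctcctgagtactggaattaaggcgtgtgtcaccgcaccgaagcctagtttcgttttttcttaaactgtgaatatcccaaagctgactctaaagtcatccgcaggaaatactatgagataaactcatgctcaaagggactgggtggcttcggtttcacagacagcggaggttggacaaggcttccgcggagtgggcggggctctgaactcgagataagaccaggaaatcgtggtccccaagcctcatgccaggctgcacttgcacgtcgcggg
Pdcd1lg2: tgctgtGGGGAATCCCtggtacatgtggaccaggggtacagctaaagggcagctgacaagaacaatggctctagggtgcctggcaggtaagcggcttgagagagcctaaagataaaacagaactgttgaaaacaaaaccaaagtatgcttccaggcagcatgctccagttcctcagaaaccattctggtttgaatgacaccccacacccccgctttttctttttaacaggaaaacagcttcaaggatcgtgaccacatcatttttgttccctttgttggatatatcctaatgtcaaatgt
Il2ra: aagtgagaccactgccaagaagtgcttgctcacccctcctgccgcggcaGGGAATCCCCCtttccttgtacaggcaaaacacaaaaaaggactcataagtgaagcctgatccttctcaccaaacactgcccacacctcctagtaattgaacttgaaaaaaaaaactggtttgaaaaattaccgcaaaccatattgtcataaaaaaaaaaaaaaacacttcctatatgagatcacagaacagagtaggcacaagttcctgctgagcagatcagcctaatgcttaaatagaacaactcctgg
Ctla4: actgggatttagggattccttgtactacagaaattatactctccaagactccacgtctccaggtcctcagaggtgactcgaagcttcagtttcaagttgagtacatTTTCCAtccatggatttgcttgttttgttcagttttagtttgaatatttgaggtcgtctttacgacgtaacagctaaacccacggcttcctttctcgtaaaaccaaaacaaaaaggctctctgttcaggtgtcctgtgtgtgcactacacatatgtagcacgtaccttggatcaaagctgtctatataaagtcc

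The 4 motifs were TTCNNNGAA (the gamma-activated site), the interferon regulatory factor element (a pair of GAAA with any 2 bases between), a loose NF-kB site (GGG and CC with any 5 bases between) and TGGAAA (the core of NFAT sites). Of 32851 mouse promoter windows of this length, 8.3%, 3.44%, 50.8% and 21.4% held them, in that order. The Pdcd1lg2 window held the NF-kB match GGGGAATCCC, and the Il2ra window held the overlapping matches GGGAATCCCC and GGAATCCCCC. The Ctla4 window held TTTCCA, the NFAT core on the reverse strand. None of the 4 motifs was found in the Cd274 window, nor in those of Pdcd1, Tigit and Btla. A second Foxp3 window held TTCCAAGAA and the overlapping TTTCCA, and its other window held GGCTGATCCC. These are letters in these windows and were not tested for binding.

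Between genotype labels, the regulatory T cell and checkpoint genes were higher in the IL10-labelled ileum. Under the control inoculum all 9 measured genes passed the test, by 1.82 (Pdcd1) to 5.46 (Ctla4) on the log2 scale. On the panel as a whole 53.6% of the tested genes were called higher and 3.94% lower in that comparison, with a median log2 difference of 1.01. Under the STAT inoculum 6 of the 9 passed (Foxp3, Ctla4, Il2ra, Icos, Pdcd1 and Cd274), against 40% of the panel called higher and 11.6% lower and a panel median of 0.50. Since 5 of the 9 had to differ by the way they passed the filter, these counts are a description.

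**Figure D1:**
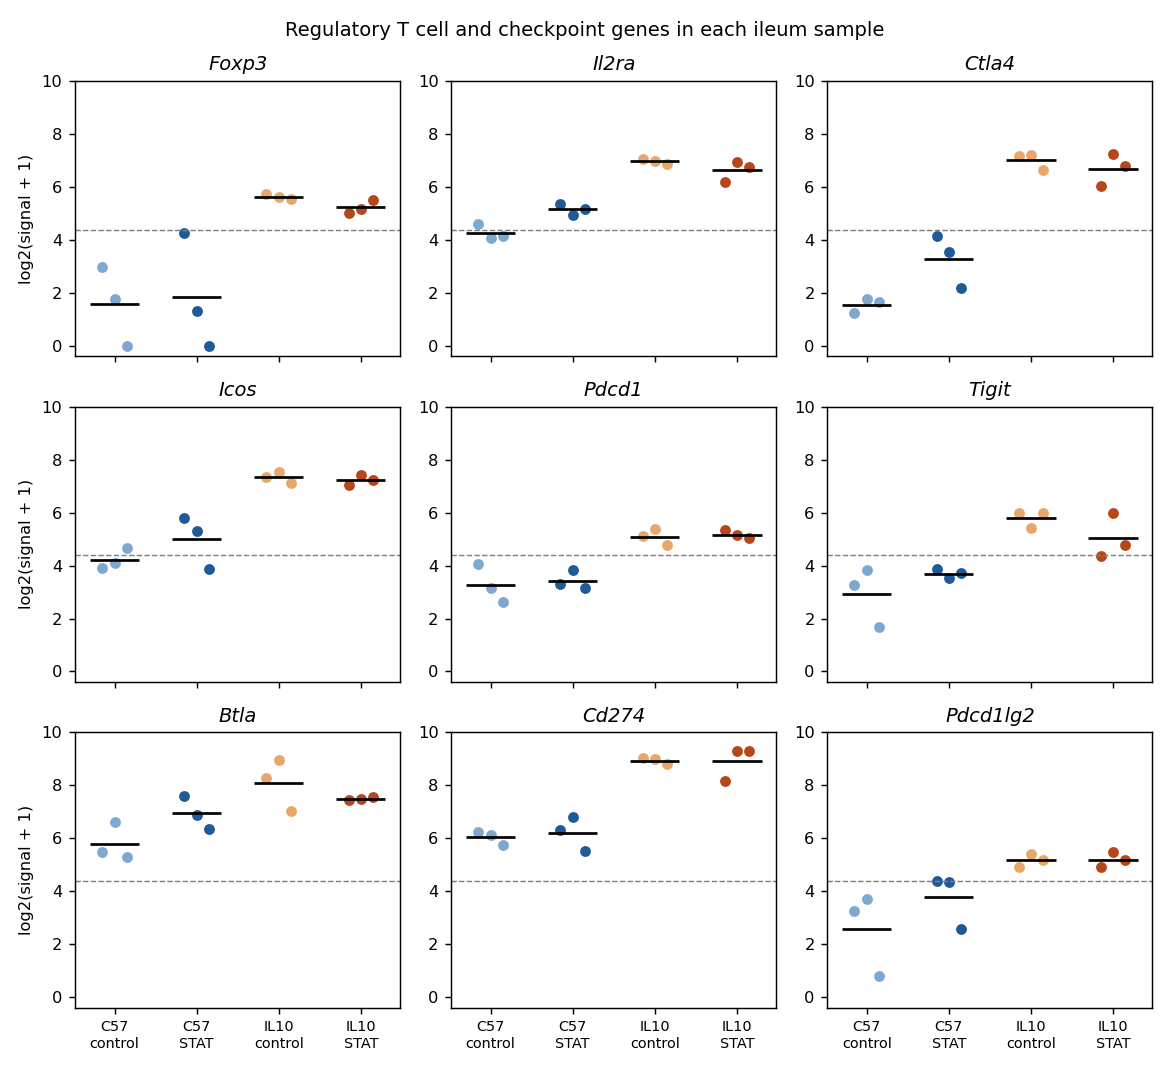
Signal of the 9 measured genes in each of the 12 samples, as log2(signal + 1) on the vertical axis, by group on the horizontal axis; points are samples, bars are group means (n = 3) and the dashed line is a signal of 20. The 5 genes that passed the filter through the IL10 label stay under the dashed line in every C57-labelled sample.

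Foxp3, the defining transcription factor of regulatory T cells, had a signal of 6.79, 2.39 and 0 in WT_control and of 18.1, 1.46 and 0 in WT_STAT. In IL10_control it was 51.7, 47.8 and 45.1, and in IL10_STAT 31.6, 35.2 and 44.4. Every IL10-labelled sample thus lay above every C57-labelled sample, and the C57-labelled values were at or near background. The fitted difference was 4.05 ± 0.95 (log2, SE; limma, adjusted p = 0.00339) under the control inoculum and 3.38 ± 0.95 (adjusted p = 0.0119) under STAT. With the C57-labelled groups set to 20, the signal was at least 2.41-fold and at least 1.83-fold higher. Single C57-labelled samples, the highest or the lowest of their group, moved the fitted difference. Under the control inoculum it was 4.74 without WT_control 1 and 3.26 without WT_control 3, the sample with the fewest counts (146691). Under STAT it was 4.59 without WT_STAT 1 and 2.46 without WT_STAT 3. Foxp3 passed in each of these fits (limma, adjusted p = 0.0024, 0.0166, 0.00062 and 0.0438). Since it passed the filter through the IL10 label and had to differ, these results are a description. The lower bounds cannot change here, because every C57-labelled signal was under 20 and was set to 20. After quantile normalization the difference was 1.55 (adjusted p = 0.0431) under control and 1.501 under STAT, where it no longer passed (adjusted p = 0.0522).

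Il2ra, the alpha chain of the interleukin-2 receptor, was measured at 23.1, 16.0 and 16.7 in WT_control and at 39.98, 29.95 and 34.7 in WT_STAT. It was at 133, 125 and 114 in IL10_control and at 71.7, 122 and 106 in IL10_STAT. The 4 groups were ordered WT_control, WT_STAT, IL10_STAT and IL10_control, and only the last pair overlapped. The signal was 6.45-fold higher with the IL10 label under the control inoculum (log2 2.69 ± 0.24, limma adjusted p = 7.43e-06) and 2.77-fold higher under STAT (1.47 ± 0.24, adjusted p = 0.000522). It passed at smaller sizes with other scalings: 1.52 with median centring and 0.93 with quantile normalization under control, and 0.95 and 0.73 under STAT.

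Ctla4, an inhibitory receptor of regulatory and activated T cells, competes for Cd80 and Cd86, and its C57-labelled values were near background. Its signal was 1.36, 2.39 and 2.18 in WT_control and 16.6, 10.5 and 3.54 in WT_STAT, against 143, 148 and 99.998 in IL10_control and 63.9, 152 and 111 in IL10_STAT. The lowest IL10-labelled sample (63.9) lay well above the highest C57-labelled one (16.6). The difference was 5.46 ± 0.46 (limma, adjusted p = 5.37e-06) under the control inoculum and 3.41 ± 0.46 (adjusted p = 0.000198) under STAT. As bounds the signal was at least 6.43-fold and at least 5.13-fold higher. With median centring the difference was 4.29 under control and 2.89 under STAT, and with quantile normalization 3.31 and 2.22, and it passed in all 4 fits.

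Icos, the costimulatory receptor encoded beside Ctla4, was at 14.025, 16.0 and 24.02 in WT_control and at 54.0, 39.0 and 13.4 in WT_STAT. The IL10_control samples were at 163, 185 and 139 and the IL10_STAT samples at 131, 172 and 151. The genotype labels separated fully, and WT_STAT 3 lay at the low end of its group. The signal was 8.74-fold higher under the control inoculum (3.13 ± 0.42, limma adjusted p = 8.26e-05) and 4.77-fold higher under STAT (2.25 ± 0.42, adjusted p = 0.00124). With median centring and quantile normalization the difference was 1.96 and 1.43 under control, and 1.73 and 1.45 under STAT, and it passed in all 4 fits.

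Pdcd1 was low in every sample, at 5.09 to 15.8 in the 6 C57-labelled samples, 33.6, 41.2 and 26.4 in IL10_control and 39.3, 34.2 and 32.0 in IL10_STAT. The labels did not overlap, and the difference passed under the control inoculum (1.82 ± 0.35, limma adjusted p = 0.000937, at least 1.66-fold) and under STAT (1.76 ± 0.35, adjusted p = 0.00176, at least 1.75-fold). Relative to the rest of the panel the result depended on the scaling. After centring each sample on its median it was 0.65 under the control inoculum (limma, adjusted p = 0.0718) and passed under STAT at 1.235 (adjusted p = 0.00524). After quantile normalization it was -0.54 under control and 0.33 under STAT (adjusted p = 0.373).

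Tigit, whose ligand is the poliovirus receptor, was at 2.18 to 13.5 in the C57-labelled samples. It was at 62.2, 42.3 and 62.5 in IL10_control and at 19.6, 63.1 and 26.3 in IL10_STAT. Under the control inoculum it rose by 2.88 ± 0.53 (limma, adjusted p = 0.000769, at least 2.74-fold). Without WT_control 3, the sample with the fewest counts, the difference was 2.25 (adjusted p = 0.00172). Median centring gave 1.71 (adjusted p = 0.00746) under control and 0.83 (adjusted p = 0.148) under STAT. Quantile normalization took the control difference to 0.70 (adjusted p = 0.330). Under STAT the difference was 1.35 ± 0.53 and missed the threshold (adjusted p = 0.0539), although the samples did not overlap. It passed there with only the 2 groups of the comparison in the fit (adjusted p = 0.0322), with a pseudocount of 20 (0.0327) and without any one of WT_control 2, WT_control 3 or IL10_STAT 1 (0.0380, 0.0139 and 0.0370), while quantile normalization turned it to -0.31.

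Cd274, the more broadly expressed of the PD-1 ligands, was at 74.6, 69.2 and 53.1 in WT_control and 79.0, 110.3 and 44.6 in WT_STAT. It was at 516, 508 and 445 in IL10_control and at 287, 624 and 630.4 in IL10_STAT. The lowest IL10-labelled sample lay above the highest C57-labelled one. The signal was 7.42-fold higher under the control inoculum (2.89 ± 0.37, limma adjusted p = 6.18e-05) and 6.54-fold higher under STAT (2.71 ± 0.37, adjusted p = 0.000198). With median centring and quantile normalization the difference was 1.72 and 1.70 under control, and 2.19 with both under STAT, and it passed in all 4 fits.

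Pdcd1lg2, the other PD-1 ligand, known mainly from dendritic cells and macrophages, was at 0.728 to 19.7 in the C57-labelled samples, 29.1, 41.2 and 35.0 in IL10_control and 29.5, 43.2 and 35.3 in IL10_STAT. Its difference was 2.58 ± 0.69 under the control inoculum (limma, adjusted p = 0.00734, at least 1.74-fold). Without WT_control 3 it was 1.68 (adjusted p = 0.0151). That sample, at 0.728 or 0.5 counts above background, had the fewest counts of all samples (146691). Median centring gave 1.41 (limma, adjusted p = 0.0324) under control and 0.90 (adjusted p = 0.160) under STAT. Quantile normalization turned the control difference to -0.16. Under STAT it was 1.42 ± 0.69 (adjusted p = 0.112); with a pseudocount of 20 it was 0.71 and passed (adjusted p = 0.0212), as it did without WT_control 3 (0.0204).

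Btla, an inhibitory receptor of B and T cells that binds Tnfrsf14, varied most among the IL10_control samples, at 307, 490.2 and 129. It was at 43.9, 96.5 and 38.6 in WT_control and at 194, 117 and 79.98 in WT_STAT, while IL10_STAT gave 175, 179 and 186. Under the control inoculum it was 4.84-fold higher with the IL10 label (2.28 ± 0.50, limma adjusted p = 0.00238). That difference was 1.11 with median centring (adjusted p = 0.0166) and 0.92 with quantile normalization (adjusted p = 0.0492). Under STAT the groups overlapped and the difference was 0.56 ± 0.50 (adjusted p = 0.383).

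In whole tissue, more cells of a type and more RNA per cell cannot be told apart, and the markers of T cells were higher with the IL10 label too. Of 15 listed T cell markers 14 were in the table and 12 were tested. Of these, 12 were called higher under the control inoculum and 10 under STAT, against 53.6% and 40% of the panel. Cd5, Cd6 and Cd8a were under 20 in every C57-labelled sample, so they passed the filter through the IL10 label and had to differ. The 14 markers summed to 402 to 601 in WT_control and 592 to 786 in WT_STAT. They summed to 1781 to 2801 in IL10_control and 1396 to 1766 in IL10_STAT, and none was at 0 in all samples of a group. Cd3e, a chain of the T cell receptor complex, rose by 2.61 ± 0.35 (limma, adjusted p = 8.26e-05) under the control inoculum and by 1.72 ± 0.35 (adjusted p = 0.00213) under STAT. Cd4, the coreceptor of helper and regulatory T cells, rose by 2.12 ± 0.27 (adjusted p = 6.87e-05) and 1.21 ± 0.27 (adjusted p = 0.00416). Cd8a, the coreceptor of cytotoxic T cells, rose by 2.80 ± 0.46 (adjusted p = 0.000366) and 1.87 ± 0.46 (adjusted p = 0.00633), at least 4.18-fold and at least 2.65-fold as bounds, since its C57-labelled signals were under 20. Lists of other cell types that can carry the ligands were read as well. The macrophage and monocyte markers (8 of 11 in the table) summed to 907 to 1942 in the C57-labelled samples. In the IL10-labelled samples they summed to 2789 to 4216. Of the 8, 7 were called higher under control, against 53.6% of the panel. Under STAT 4 were called higher and 1 lower, against 40% and 11.6% of the panel. The dendritic cell markers (5 of 8) were at 477 to 946 and 1682 to 2104. Of these, 5 were called higher under control and 3 under STAT, against the same panel shares. Neither list had a gene at 0 in all samples of a group, and the part of cell numbers in the results above was not tested.

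To set the 9 genes against T cell content, each was measured relative to the mean log2 signal of the T cell receptor complex genes Cd3d, Cd3e and Cd247, and the fit was repeated over the other 454 genes. The difference between the labels was wider than that of the reference for Ctla4 under both inocula and for Cd274 under STAT. On this relative scale 11.2% of the genes were called higher and 56.2% lower for the IL10 label under the control inoculum, and 14.5% and 56.2% under STAT.

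Relative to the reference, Ctla4 was at -4.31, -3.97 and -3.45 (log2) in WT_control and -1.83, -2.21 and -3.39 in WT_STAT. It was at -0.47, -0.72 and -0.66 in IL10_control and -0.94, 0.05 and -0.42 in IL10_STAT. The labels did not overlap, and the relative difference was 3.29 ± 0.39 (limma, adjusted p = 1.81e-05) under control and 2.04 ± 0.39 (adjusted p = 0.000755) under STAT. With the whole T cell list as the reference the differences were 2.80 and 1.78. Ctla4 was tested only through the IL10-labelled samples, all its C57-labelled signals being under 20, so these relative values are a description. With signals under 20 set to 20, the Ctla4 fold was at least 6.43 under control, beside 5.93 for Cd3e, 4.38 for Cd3d and 3.53 for Cd247. Under STAT it was at least 5.13, beside 3.35, 2.53 and 2.13 in the same order.

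Cd274 relative to the same reference was at 0.70, 0.41 and 0.64 in WT_control and 0.36, 1.06 and -0.07 in WT_STAT. The IL10_control samples were at 1.37, 1.05 and 1.48 and the IL10_STAT samples at 1.21, 2.08 and 2.08. Its relative difference was 1.34 ± 0.32 under STAT (limma, adjusted p = 0.00271), and it passed there without any one of the 12 samples, at 1.08 to 1.64. Under control it was 0.72 ± 0.32 and missed the threshold (adjusted p = 0.0632). It passed there in 3 of the 12 fits (without WT_STAT 2, WT_STAT 3 or IL10_STAT 1, lowest adjusted p = 0.0363). With the whole T cell list in place of the receptor genes, Cd274 was at 1.08 under STAT (adjusted p = 0.005) and 0.23 under control (adjusted p = 0.487). Both sets hold T cell genes, so neither measures the other cells that can carry this ligand. Foxp3 relative to the reference passed under STAT at 2.01 ± 0.84 (adjusted p = 0.0491) but held in only 3 of the 12 fits that left out a sample (without WT_control 1, WT_control 3 or WT_STAT 1; adjusted p up to 0.193 in the others), and not with the whole T cell list (adjusted p = 0.0790); under control it was 1.87 ± 0.84 (adjusted p = 0.0670) and it passed without WT_control 1, WT_STAT 1 or WT_STAT 3 (lowest adjusted p = 0.00926). With signals under 20 set to 20, the Foxp3 folds of 2.41 under control and 1.83 under STAT lay below those of Cd3d, Cd3e and Cd247. Its relative direction thus depended on signals under 20.

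The other 6 genes did not pass relative to the T cell receptor genes under either inoculum with all 12 samples. Icos was at 0.95 ± 0.40 (limma, adjusted p = 0.0532) and 0.88 ± 0.40 (adjusted p = 0.0687), and Il2ra at 0.52 ± 0.25 (adjusted p = 0.0801) and 0.09 ± 0.25 (adjusted p = 0.744). Single left-out samples brought some of these past the threshold: Icos without WT_control 3 or WT_STAT 1 under both inocula and without WT_STAT 3 under control (lowest adjusted p = 0.00921 and 0.0294), and Il2ra without IL10_control 2 under control (0.0400). Btla, at 0.10 ± 0.36 under control and -0.82 ± 0.36 under STAT (adjusted p = 0.0600), was called lower under STAT without WT_control 2, WT_STAT 3, IL10_control 2 or IL10_control 3 (lowest adjusted p = 0.0274). Pdcd1 was at -0.35 ± 0.31 under control and 0.38 ± 0.31 under STAT. With the whole T cell list as the reference, Pdcd1 was lower under control (-0.84, adjusted p = 0.0404) and Btla lower under STAT (-1.07, adjusted p = 0.0171).

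**Figure D2:**
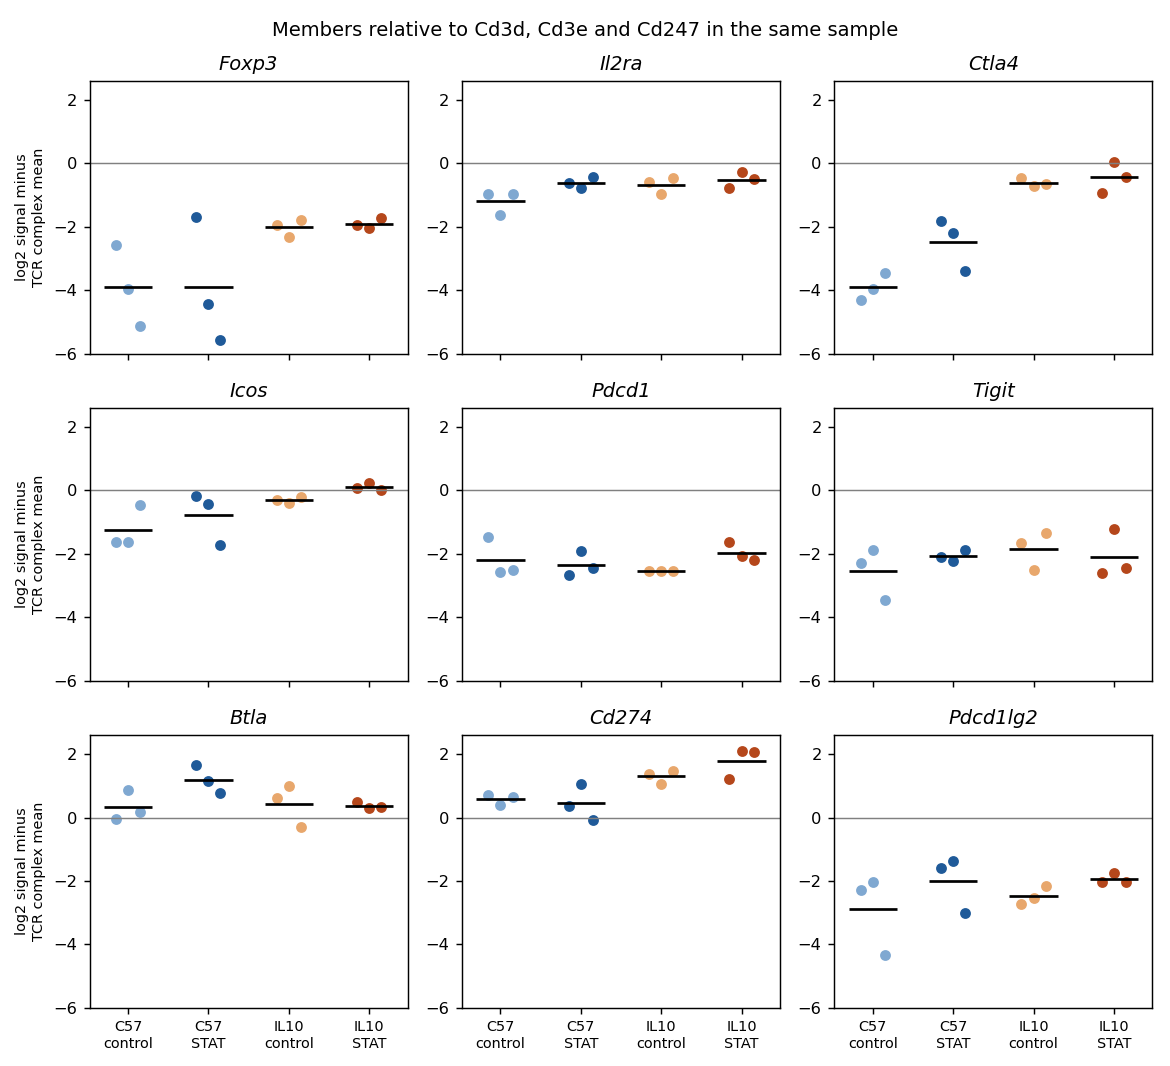
Log2 signal of the 9 genes minus the mean log2 signal of Cd3d, Cd3e and Cd247 (vertical axis) in each of the 12 samples, by group; bars are group means (n = 3). The Ctla4 samples of the IL10 label, at -0.94 to 0.05, lie above all C57-labelled samples, at -4.31 to -1.83.

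Btla was set beside B cell genes, because it is expressed by B cells and its values were uneven among replicates. Of 10 listed B cell markers 9 were in the table and 8 were tested. Of these, 5 were called higher under control, near the panel share of 53.6%. Under STAT 0 were called higher (limma, smallest adjusted p = 0.296), against 40% of the panel. The 9 markers summed to 1237 to 2095 in WT_control and 1638 to 2602 in WT_STAT. They summed to 1844 to 4132 in IL10_control and 2788 to 2858 in IL10_STAT, and none was at 0 in all samples of a group. Ms4a1 (CD20), a surface protein of B cells, was at 480.3, 855 and 62.5 in the same IL10_control samples in which Btla was at 307, 490.2 and 129. Cr2, a complement receptor of B cells and follicular dendritic cells, was at 44.2, 71.1 and 1.81 there. IL10_control 2 was thus the highest and IL10_control 3 the lowest of that group for all 3 genes, and WT_STAT 3 was the lowest of its group for all 3. Deviations of Btla from the group means followed those of Cr2 over the 12 samples with a Pearson r of 0.93 and a Spearman rho of 0.91. The r was 0.91 without the 2 farthest samples, and for Clu the 3 values were 0.95, 0.93 and 0.91. These partners were chosen after the values were seen, and all points share the sample and its scaling factor. The part of B cell or lymphoid tissue content in the Btla values was not tested.

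**Figure D3:**
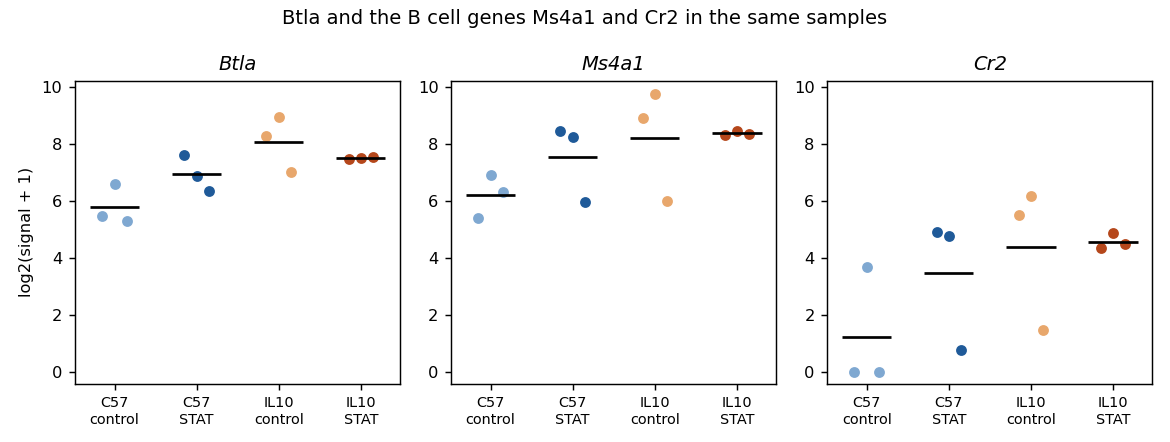
Btla, Ms4a1 and Cr2 in each of the 12 samples, as log2(signal + 1) on the vertical axis, by group; bars are group means (n = 3). In IL10_control and in WT_STAT the samples keep the same lowest member, replicate 3, in all 3 panels.

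The maternal STAT inoculum was compared with the control inoculum within each genotype label. In C57-labelled mice none of the 9 genes passed, against 0.875% of the panel called higher and 0% lower. All 9 differences were above 0, with a median of 0.77, as were 79.6% of the 457 tested genes, whose median was 0.24. At an unadjusted p under 0.05 there were 3 of the 9 (Ctla4, Il2ra and Btla), against 16.8% of the panel, and 2 of the 9 had groups that did not overlap (Ctla4 and Il2ra), against 15.8%.

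Il2ra was higher in each WT_STAT sample (29.95 to 39.98) than in each WT_control sample (16.0 to 23.1), with a difference of 0.88 ± 0.24 that missed the threshold (limma, adjusted p = 0.0929). Ctla4 was likewise higher in each WT_STAT sample (3.54 to 16.6) than in WT_control (1.36 to 2.39), at 1.73 ± 0.46 (adjusted p = 0.0929), with all values under 20. Its nearest samples had 2.5 (WT_STAT 3) and 1.8 (WT_control 2) counts above background. With a pseudocount of 20 the Ctla4 difference was 0.44 (limma, adjusted p = 0.482). Icos differed by 0.77 ± 0.42 (adjusted p = 0.395) and Btla by 1.14 ± 0.50 (adjusted p = 0.272), and in both the groups overlapped. Leaving out WT_STAT 3, the sample with the fewest counts of its group (191012), brought Ctla4 to 2.28 (adjusted p = 0.0189) and Icos to 1.34 (adjusted p = 0.0233), while 44 genes of the panel then passed in place of 4; without WT_control 1 or WT_STAT 1 there were 0. Foxp3 (0.28 ± 0.95), Pdcd1 (0.14 ± 0.35) and Cd274 (0.17 ± 0.37) had differences smaller than their standard errors.

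In IL10-labelled mice none of the 9 genes passed either (limma), 0 had an unadjusted p under 0.05, and the smallest adjusted p was 0.838. On the panel 0% were called in either direction, and 6.13% were lower at an unadjusted p under 0.05. Of the 9 differences 7 were below 0, while 21.2% of the 457 tested genes lay above 0 and their median was -0.22. Foxp3 was the only one of the 9 whose groups did not overlap, at 31.6 to 44.4 in IL10_STAT and 45.1 to 51.7 in IL10_control. That was so in this direction for 21.2% of the panel, and the Foxp3 difference was -0.38 ± 0.95. Before the factor per sample, its counts above background overlapped. They were 44.9, 35.3 and 53.9 in IL10_STAT and 34.4, 43.3 and 31.3 in IL10_control. Cd274 was at -0.02 ± 0.37, Il2ra at -0.34 ± 0.24 and Tigit at -0.76 ± 0.53.

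The interaction asked whether the STAT difference was another one in IL10-labelled than in C57-labelled mice, which equals asking whether the genotype difference changed with the inoculum. None of the 9 passed, nor did any gene of the panel (0% in either direction). All 9 interaction terms were below 0, as was the panel median of -0.48, and 13.8% of the panel lay above 0. Il2ra had -1.22 ± 0.34 (limma, adjusted p = 0.104), Ctla4 -2.05 ± 0.66 (adjusted p = 0.124) and Btla -1.72 ± 0.71 (adjusted p = 0.195). These 3 had an unadjusted p under 0.05, against 21% of the panel in that direction. Without WT_STAT 3 the term passed for Ctla4 (-2.60, adjusted p = 0.0278) and Icos (-1.44, adjusted p = 0.0365), and for 58 genes of the panel. Relative to the T cell receptor genes, 0 of the 9 and 0% of the panel passed in the interaction or in either comparison of the inocula; Ctla4 was at 1.43 ± 0.39 in C57-labelled mice (adjusted p = 0.238).

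The ligands and partner chains of these receptors were read from a list of 41 genes, of which 32 were in the table and 28 were tested. Under the control inoculum 15 of the 28 were called higher and 0 lower with the IL10 label, and under STAT 10 higher and 2 lower (Maf, a transcription factor, at -1.32, and Nt5e, the ectonucleotidase CD73, at -0.69). Between the inocula 0 of the 28 passed within either label. These shares lie near those of the panel given above.

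The Ctla4 ligands Cd80 and Cd86, carried by antigen-presenting cells, were both higher with the IL10 label. Cd80 had a mean signal of 28.1 ± 8.50 (SD, n = 3) in WT_control and 29.0 ± 15.9 in WT_STAT, against 125 ± 39.0 in IL10_control and 125 ± 26.3 in IL10_STAT. It rose by 2.10 ± 0.40 (limma, adjusted p = 0.00098) under control and 2.19 ± 0.40 (adjusted p = 0.00121) under STAT. Cd86 rose by 1.71 ± 0.22 (adjusted p = 5.94e-05) and 0.95 ± 0.22 (adjusted p = 0.00417), from 65.7 ± 8.57 to 221 ± 56.2 and from 109 ± 9.39 to 211 ± 4.81. Cd28, the receptor that shares these ligands, was at 1.81 to 20.2 over all 12 samples and was not tested.

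The chains that complete the interleukin-2 receptor with Il2ra moved in the same direction. Il2rb rose by 2.25 ± 0.26 (limma, adjusted p = 3.00e-05) under control and 1.23 ± 0.26 (adjusted p = 0.00248) under STAT. Il2rg, a chain shared with other cytokine receptors, rose by 2.57 ± 0.27 (adjusted p = 1.47e-05) and 1.20 ± 0.27 (adjusted p = 0.00370). Il2 itself was at most 4.69 in any sample and was not tested.

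Among the receptors that share ligands with Tigit, Cd226, a costimulatory one, rose by 2.15 ± 0.30 (limma, adjusted p = 0.000108) and 1.36 ± 0.30 (adjusted p = 0.00336). Cd96 differed by 0.58 ± 0.26 under control (adjusted p = 0.0793) and by 0.70 ± 0.26 under STAT (adjusted p = 0.0430). All its C57-labelled signals were under 20 (10.6 to 18.1), so that it was tested only through the IL10 label, and with that floor the fold was at least 1.15 and at least 1.23. Cd160, which like Btla binds Tnfrsf14, differed by 1.67 ± 0.59 (adjusted p = 0.0300), with groups that overlapped, and by 1.53 ± 0.59 (adjusted p = 0.0476), at least 1.17-fold. With only 2 of its 6 C57-labelled samples at 20 or higher, it too passed the filter through the IL10 label. Tnfrsf14 itself did not pass, at 0.69 (adjusted p = 0.112) and 0.33 (adjusted p = 0.452), nor did Icosl, the ligand of Icos, at 0.94 (adjusted p = 0.0693) and -0.04 (adjusted p = 0.938). Pvr was not analysed here.

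Cd274 is a known target of interferon-gamma signalling, so the genes of that pathway were read beside it. Ifng was at 0 to 1.46 in the C57-labelled samples, 9.59, 12.4 and 6.14 in IL10_control and 10.5, 33.2 and 27.9 in IL10_STAT, too low to pass the filter. Of the other 7 listed genes, 4 were called higher with the IL10 label under each inoculum, where 53.6% of the panel was called higher under control and 40% under STAT. Irf1, an interferon-induced transcription factor, had a mean signal of 1701 ± 285 (SD, n = 3) in WT_control and 1984 ± 179 in WT_STAT, against 4366 ± 625 in IL10_control and 4362 ± 661 in IL10_STAT. It rose by 1.36 ± 0.21 (limma, adjusted p = 0.000182) and 1.13 ± 0.21 (adjusted p = 0.00116).

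Likeness was measured within groups, as the correlation over the 12 samples of deviations of log2 signal from the group means, which leaves the group differences out. All points share the sample and its scaling factor, and the values are a description. For Ctla4 the nearest genes were Zap70, a T cell receptor kinase (Pearson r 0.93, Spearman rho 0.88, r 0.81 without the 2 farthest samples), Ptafr (0.90, 0.85 and 0.75) and its neighbour Icos (0.89, 0.82 and 0.82). For Foxp3 they were Cd44 (0.93, 0.76 and 0.87), Ifit2 (0.91, 0.71 and 0.86) and Emr1 (0.91, 0.84 and 0.81). The Foxp3 values rest largely on C57-labelled samples, which had 0 to 11.6 counts above background. There its log2 SD was 1.49 (WT_control) and 2.18 (WT_STAT), against 0.096 in IL10_control and 0.245 in IL10_STAT. For Cd274 they were Ccrl2 (0.90, 0.91 and 0.66), Il7r (0.86, 0.71 and 0.72) and Zap70 (0.86, 0.79 and 0.63). Among the 9 genes themselves, Ctla4 and Icos were closest to each other, while Ctla4 and Pdcd1 had an r of -0.01 and Cd274 and Pdcd1lg2, the adjacent ligand genes, an r of 0.62.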

How the data were processed

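Total RNA from the terminal ileum of 12 mice was measured on a NanoString panel. The deposited table holds a normalized linear signal per gene and sample, with 0 columns of no sample. The normalization step is not given in the sources used here; from the values, the authors' signal is a count minus background, set to 0 where negative, times a factor per sample.

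Groups were taken from the labels, and replicates were numbered in record order. The 457 of 547 genes with 3 or more samples at a signal of 20 or higher were fitted on the log2(signal + 1) scale by limma (3.58.1; R 4.3.3), with 4 group coefficients and 5 contrasts. P-values were adjusted by Benjamini-Hochberg over the 457 genes, and a gene passed under 0.05. A second fit subtracted the mean log2 signal of Cd3d, Cd3e and Cd247 (454 genes). An exact permutation test of 3 against 3 samples cannot go below 0.1 and was not used. Where every sample of a group was under 20, that group was set to 20 and the fold is a bound.

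The genes, lists and tests were chosen with earlier results of these data known. Named were all members, the direct ligands and partner chains, Ifng, Irf1, Cd3e, Cd4, Cd8a and the 3 genes most like Foxp3, Ctla4 and Cd274; Btla's partners and 2 partner-list genes were named after their values were seen. Marker lists covered T, B, cytotoxic and NK cells, macrophages and monocytes, dendritic cells, neutrophils, epithelium, endothelium, lymphoid tissue and housekeeping genes. Alternatives were median centring, quantile normalization, a pseudocount of 20, a filter at 40 and none, the 2 groups of a contrast alone, the T cell list as reference, and leaving out each sample. The fit was tested on simulated data. One gene that the naming rule covers is not reported here.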

Additional observations from a re-analysis of the deposited data

How the results depend on the processing

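Quantile normalization was added after the data were seen; housekeeping scaling was not run, because housekeeping genes were not analysed here, and a filter at 40 left 7 of the 9 genes. No paired analysis was possible because the labels give no shared replicate numbers. Of 791 recomputed log2 differences of the 9 genes, 43 changed direction, 11 newly passed and 6 no longer passed, 2 of the latter with a changed direction. Scaling moved the panel most: calls for the IL10 label went from 245 higher and 18 lower to 154 and 183 (median centring) or 124 and 186 (quantile) under control, and from 183 and 53 to 136 and 145 or 121 and 159 under STAT. Of the 9 genes, 8 and 6 were then called under control, and 4 under STAT with quantile. For STAT in C57-labelled mice, 0 panel genes passed with median centring, with quantile or with only the 2 groups fitted.

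With median centring these values changed direction: for STAT in C57-labelled mice Cd274 (-0.21), Foxp3 (-0.093) and Pdcd1 (-0.23), for STAT in IL10-labelled mice Cd274 (0.26) and Icos (0.18), and in the interaction Cd274 (0.47) and Pdcd1 (0.58). With quantile they were, in the same order of comparisons, Cd274 (-0.28), Foxp3 (-0.093) and Pdcd1 (-0.37), then Cd274 (0.22) and Icos (0.23), then Cd274 (0.50), Icos (0.020), Pdcd1 (0.87) and Pdcd1lg2 (0.25). Quantile also turned, for the IL10 label, Pdcd1 (-0.54) and Pdcd1lg2 (-0.16) under control, and Btla (-0.018) and Tigit (-0.31) under STAT. With a pseudocount of 20 the Pdcd1 interaction was 0.019, and with the T cell list as reference 2 of the 9 genes passed under control. Apart from the scalings' own construction, the cause was not tested.

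Leaving out single samples gave 0 to 44 passing panel genes and 0 to 2 of the 9 genes for STAT in C57-labelled mice, 0 to 58 and 0 to 2 in the interaction, and 1 to 4 of the 9 relative to T cell receptor genes under control. Ranges that crossed 0 were, for STAT in C57-labelled mice, Foxp3 (-0.93 to 1.20), Pdcd1 (-0.19 to 0.54) and Cd274 (-0.13 to 0.52), for STAT in IL10-labelled mice Cd274 (-0.21 to 0.36), Pdcd1lg2 (-0.11 to 0.16), Pdcd1 (-0.085 to 0.23) and Ctla4 (-0.60 to 0.015), and in the interaction Foxp3 (-1.59 to 0.54), Pdcd1 (-0.46 to 0.27) and Cd274 (-0.53 to 0.19). Signals under 20, as in 5 of the 9 genes in C57-labelled mice, rest on few counts above background.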

Other observations

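Neutrophil and cytotoxic genes were also higher with the IL10 label. The 6 neutrophil markers summed to 7.08 to 48.2 in the C57-labelled samples, 334 to 29769 in IL10_control and 1822 to 7499 in IL10_STAT. Of the 5 tested, 5 were called higher under control and 4 under STAT, against 53.6% and 40% of the panel. S100a9, Cxcr2, Csf3r and Camp were under 20 in every C57-labelled sample. They passed the filter through the IL10 label and had to differ. The 6 measured cytotoxic and NK cell markers summed to 140 to 225 in the C57-labelled and 657 to 1456 in the IL10-labelled samples. Of the 4 tested, 4 were called higher under both inocula, against the same panel shares. Prf1, Gzmb and Eomes were under 20 in every C57-labelled sample, so any of them that was tested had to differ. Lymphoid tissue genes were called higher in 5 of 8 under control and 3 of 8 under STAT, near the shares of the panel (53.6% and 40%). Of 3 endothelial markers, 1 was called higher under control and 0 under STAT (limma, smallest adjusted p = 0.415). Of 5 epithelial markers 2 were called higher and 1 lower under control, and 1 higher and 2 lower under STAT.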
